A study of Mus musculus with 6 samples.

Results

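Aminoacyl-tRNA synthetases were followed in mouse monocytes cultured with interferon beta (IFN-beta), a type I interferon. The group comprised 36 genes chosen by name, 20 whose symbols carry no suffix and encode cytosolic enzymes and 16 with the suffix 2 that encode mitochondrial ones. They were measured by 86 of the 56605 probes on each array, and all 36 were among the 19500 genes tested. Monocytes had been isolated magnetically from bone marrow of C57BL/6J mice aged 6 to 8 weeks. The medium held M-CSF, the factor under which monocytes mature toward macrophages, at 20 ng/mL, and the culture lasted 60 h, either with 100 U of IFN-beta (3 arrays) or without it (3 control arrays). Total RNA was labelled with 1 dye and hybridised to Agilent arrays. The labels do not say whether the replicates came from separate animals or cultures, so the p-values measure only the spread between these arrays, which may be technical.

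A tRNA synthetase joins 1 amino acid to its tRNA, the step that fixes the genetic code before the ribosome is reached. Mammalian cells keep a cytosolic set, some members of which are held together in the multi-synthetase complex, and a largely separate set that is made in the cytosol and imported into mitochondria to serve the mitochondrial ribosome. Many genes of the cytosolic set are known targets of ATF4, the transcription factor of the amino acid response, which binds elements of the form TGATGNAA together with C/EBP-family partners. Gars and Kars encode both the cytosolic and the mitochondrial enzyme, and Eprs encodes a fused enzyme for glutamate and proline.

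Promoter sequences were searched for the amino acid response element. The genes were chosen by name without it, but many of the cytosolic set are known ATF4 targets, so matches there are not independent of prior knowledge. RefSeq promoters (GRCm38.p6, 250 bases before to 50 after each gene's start) were found for 27 of the 36 genes, 13 cytosolic and 14 mitochondrial. Searched on both strands, TGATGNAA was present in 5 of the 13 cytosolic promoters, those of Aars, Gars, Iars, Tars and Yars, in 0 of the 14 mitochondrial promoters, and in 3.97% of all 32851 promoters in the table. The windows below, each 30 bases long and written 5′ to 3′ on the gene's strand, show the match in capitals. Those of Aars, Gars, Iars and Tars carry the reverse complement, and that of Yars carries the element as written.
Aars: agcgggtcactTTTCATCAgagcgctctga
Gars: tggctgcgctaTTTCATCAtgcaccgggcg
Iars: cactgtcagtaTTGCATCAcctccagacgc
Tars: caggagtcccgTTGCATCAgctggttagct
Yars: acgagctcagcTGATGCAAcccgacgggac

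The Aars window lies at chr8:111033840-111033869 on the plus strand. Its match begins at position 10 from the start used, and the Aars promoter holds a further match, not shown, at position -112. The start used lies 6064 bases inside the annotated bounds of Aars, and that of Yars 169 bases inside the bounds of Yars. The remaining windows are chr6:55037960-55037989 for Gars on the plus strand, chr13:49682126-49682155 for Iars on the plus strand, chr15:11399655-11399684 for Tars on the minus strand and chr4:129189895-129189924 for Yars on the plus strand. The core of the interferon-stimulated response element, searched as GAAA, any 2 bases and GAAA again on both strands, was found in 1 of these 27 promoters, that of Qars, against 3.44% of all promoters. Each match is a description of letters in these windows and was not tested as a binding site.

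The control arrays did not form 1 tight group. The largest part of the variance over all genes (72.2%, first principal component) placed control 3 between the 3 IFN-beta arrays and controls 1 and 2. Summed over 13 fibroblast markers, the level was 3.06, 2.56 and 2.69 times the array's 75th percentile of signal with IFN-beta, against 543, 629 and 1.10 on controls 1, 2 and 3. All 13 fibroblast markers were well above background on controls 1 and 2, 6 of 13 on control 3, and 7, 7 and 8 of 13 with IFN-beta. Sums over 6 erythroid markers were 2.36, 1.89 and 1.63 with IFN-beta, against 135, 126 and 0.722 on controls 1, 2 and 3. Of these 6 markers, 4, 4 and 2 were well above background on controls 1, 2 and 3, and 2, 2 and 1 with IFN-beta. Their median log2 level on controls 1 and 2 was only -2.36 and -1.85, so the brightest genes carry the sums there. All 9 monocyte and macrophage markers were well above background on all 6 arrays. Because the samples are bulk RNA, fewer cells of a type and less RNA per cell cannot be told apart. The part of these other cells in the results below was not tested, and results are therefore given against all 3 controls, without control 3, and against control 3 alone.

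More cytosolic than mitochondrial synthetase transcripts passed the test as higher with IFN-beta, and most of both sets had log2 fold changes above 0. Of the 20 cytosolic genes, 12 rose and 0 fell at an adjusted p under 0.05 (limma, Benjamini-Hochberg over all genes); at an unadjusted p under 0.05, 15 were higher and 0 lower. The median log2 fold change of the 20 was 0.76. Over all 19500 genes, 19.8% were called in either direction, 11.8% rose and 8.04% fell, and the median log2 fold change was 0.10. Of the 16 mitochondrial genes, 3 rose and 0 fell (4 higher and 1 lower at an unadjusted p under 0.05), and their median was 0.27, which turned to -0.041 when arrays were scaled to spike-in transcripts. All 20 cytosolic fold changes lay above 0 (17 of 20 with spike-in scaling, 19 with quantile normalization) and ran between 0.09 (Qars) and 1.62 (Aars). The mitochondrial ones ran between -0.56 (Wars2) and 0.80 (Sars2), with 13 of 16 above 0. Over all genes, 11328 of 19500 lay above 0. A log2 fold change of 1 or more was reached by 6 cytosolic genes, 0 mitochondrial genes and 7.1% of all genes. Every IFN-beta array lay above every control array for 15 of 20 cytosolic and 5 of 16 mitochondrial genes (23.4% of all genes). Every IFN-beta array lay below every control array for 2 mitochondrial genes, Lars2 and Wars2 (16.8% of all genes).

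**Figure D1:**
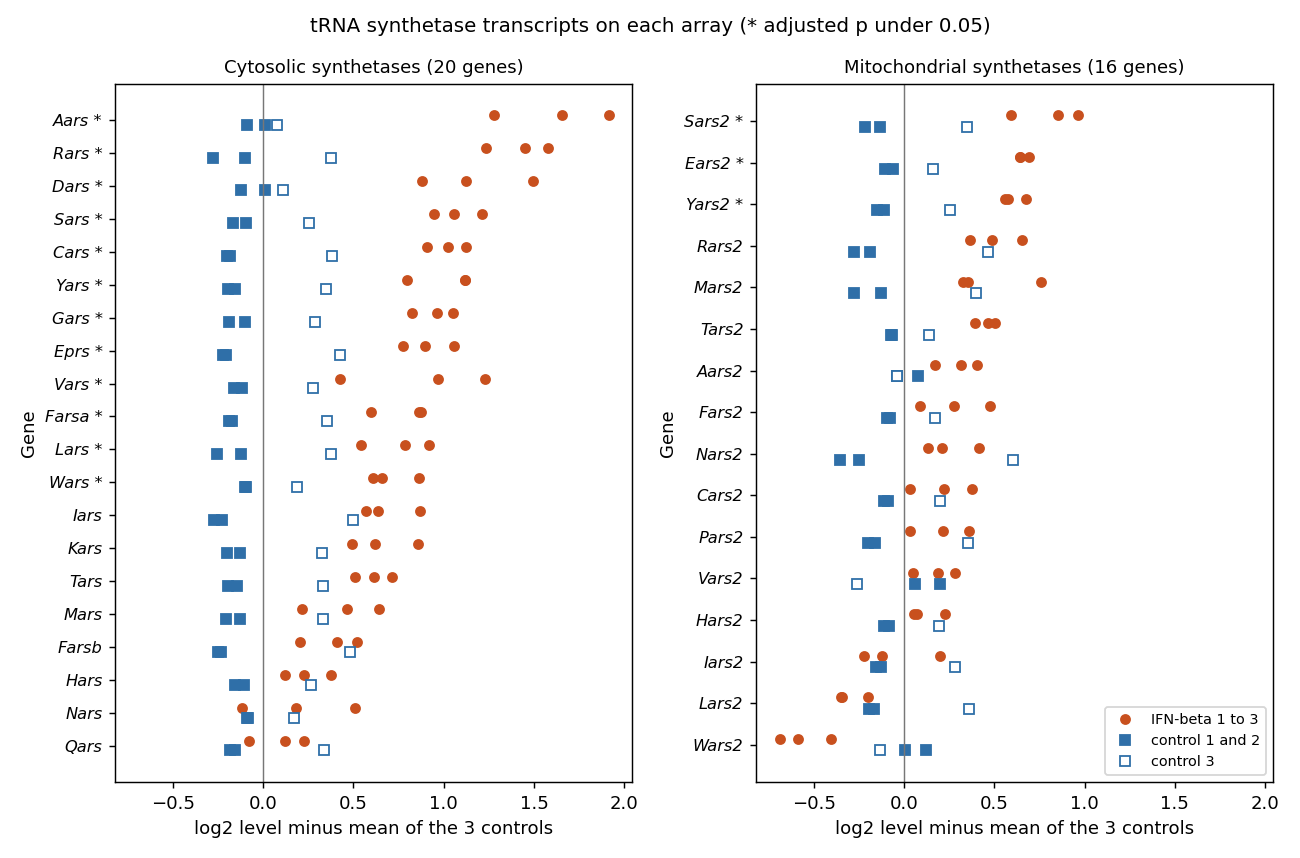
Level of each tRNA synthetase gene on each array, as log2 signal minus the mean of the 3 controls, for 20 cytosolic (left) and 16 mitochondrial (right) genes; circles are IFN-beta arrays and squares control arrays, with control 3 open. The IFN-beta points of the upper cytosolic genes lie to the right of all controls, and control 3 lies to the right of controls 1 and 2 for all 20 cytosolic genes.

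Levels below are log2 of the processed signal relative to the array's 75th percentile and are compared only within a probe. Aars, which charges tRNA with alanine (probe at chr8:113579376-113579434, mm9), had levels of 4.12, 4.50 and 4.76 with IFN-beta, against 2.85, 2.75 and 2.92 in controls. The controls were close together and well apart from the IFN-beta arrays, and the log2 fold change was 1.62 ± 0.20 (SE, n = 3 each, limma adjusted p = 0.0017), a 3.07-fold difference. Rars, the arginine enzyme of the complex (chr11:35621903-35621962, mm9), had levels of 4.44, 4.22 and 4.57 with IFN-beta, against 2.89, 2.71 and 3.37 in controls. Control 3 was the highest control but lay below all IFN-beta arrays, and the log2 fold change was 1.42 ± 0.22 (limma adjusted p = 0.0043). Dars, the aspartate enzyme of the complex (a probe spanning chr1:130310284-130311944, mm9), had levels of 1.28, 0.67 and 0.91 with IFN-beta, against -0.20, -0.33 and -0.10 in controls. Here the IFN-beta arrays differed more among themselves than the controls did, and the log2 fold change was 1.17 ± 0.20 (limma adjusted p = 0.0073). A second Dars probe, well above background on every array, was only at 0.29 and did not pass (limma adjusted p over probes = 0.26). The size for Dars therefore depends on the probe.

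Sars, the serine enzyme (chr3:108229539-108229598, mm9), had levels of 5.03, 5.14 and 5.29 with IFN-beta, against 3.99, 3.92 and 4.34 in controls. Its groups did not overlap, and the log2 fold change was 1.07 ± 0.18 (limma adjusted p = 0.0068). Cars, the cysteine enzyme (chr7:150743615-150743674, mm9), had levels of 4.58, 4.69 and 4.79 with IFN-beta, against 3.48, 3.47 and 4.05 in controls. Control 3 lay midway between controls 1 and 2 and the IFN-beta arrays, with a log2 fold change of 1.02 ± 0.21 (limma adjusted p = 0.014). Yars, the tyrosine enzyme (chr4:128896047-128896106, mm9), had levels of 2.40, 2.73 and 2.73 with IFN-beta, against 1.45, 1.41 and 1.95 in controls. Its log2 fold change was 1.01 ± 0.21 (limma adjusted p = 0.015), again with control 3 nearest to the IFN-beta arrays.

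The other 6 cytosolic genes that rose had log2 fold changes between 0.71 and 0.95. Gars, the glycine enzyme of both compartments, had levels of 6.26, 6.40 and 6.49 with IFN-beta, against 5.34, 5.25 and 5.72 in controls. Eprs, the fused enzyme of the complex, had levels of 4.55, 4.43 and 4.72 with IFN-beta, against 3.45, 3.43 and 4.08 in controls. In both genes control 3 was the highest control and the groups stayed apart, with log2 fold changes of 0.95 and 0.91 (limma adjusted p = 0.012 and 0.026). Vars, the valine enzyme, had levels of 0.94, 1.74 and 1.48 with IFN-beta, against 0.40, 0.35 and 0.79 in controls. Its first IFN-beta array lay only just above control 3, and its log2 fold change of 0.87 carried the widest error of the 12 (SE 0.25, limma adjusted p = 0.043).

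Farsa, the alpha subunit of the phenylalanine enzyme, had levels of 3.58, 3.86 and 3.85 with IFN-beta, against 2.81, 2.80 and 3.34 in controls. Lars, the leucine enzyme of the complex, which is also known in human cells as a leucine sensor for mTORC1, had levels of 4.17, 3.93 and 4.31 with IFN-beta, against 3.27, 3.13 and 3.76 in controls. Control 3 was again the control nearest to the IFN-beta arrays, and the log2 fold changes were 0.78 for Farsa and 0.75 for Lars (limma adjusted p = 0.035 and 0.048). Wars, the tryptophan enzyme, whose human gene is known as an interferon gamma target, had levels of 4.50, 4.55 and 4.76 with IFN-beta, against 3.79, 3.80 and 4.08 in controls. Its groups stayed apart, and its log2 fold change of 0.71 ± 0.17 (limma adjusted p = 0.026) was the smallest of the 12 that rose.

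The 8 cytosolic genes that did not pass the test were Iars, Kars, Tars, Mars, Farsb, Hars, Nars and Qars. Iars, Kars and Tars, the isoleucine, lysine and threonine enzymes, had log2 fold changes of 0.69, 0.66 and 0.61 with limma adjusted p of 0.082, 0.058 and 0.062, and in all 3 every IFN-beta array lay above every control. Qars, the glutamine enzyme of the complex, was the lowest of the 20 at 0.09 (95% interval -0.38 to 0.56). Its levels were 4.07, 4.27 and 4.38 with IFN-beta, against 3.97 to 4.49 in controls, of which control 3 lay above all IFN-beta arrays. Farsb, the beta subunit that pairs with Farsa, had a log2 fold change of 0.38 and overlapping groups.

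Genes that rose were found inside and outside the complex and in both structural classes of enzyme. In the multi-synthetase complex 4 of 8 rose (Dars, Eprs, Lars and Rars, median log2 fold change 0.72), and outside it 8 of 12 rose (median 0.83). Over all genes 11.8% rose. Of class I enzymes, which share a Rossmann-fold catalytic domain, 6 of 9 rose, and of class II enzymes 5 of 10 rose, with Eprs belonging to both. The 3 scaffold proteins of the complex, Aimp1, Aimp2 and Eef1e1, had log2 fold changes of 0.20, 0.43 and 0.56, and 0 of 3 passed limma's test (2 of 3 at an unadjusted p under 0.05). The difference between scaffold and enzymes was not tested.

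Among the mitochondrial enzymes, Sars2, which charges serine, had levels of 0.30, 0.56 and 0.67 with IFN-beta, against -0.42, -0.51 and 0.06 in controls. Ears2, the glutamate enzyme, had levels of 0.82, 0.82 and 0.87 with IFN-beta, against 0.12, 0.07 and 0.34 in controls. Yars2, the tyrosine enzyme, had levels of 2.63, 2.65 and 2.75 with IFN-beta, against 1.96, 1.92 and 2.33 in controls. In these 3 genes the groups did not overlap and control 3 was the highest control, and their log2 fold changes were 0.80 ± 0.21, 0.66 ± 0.16 and 0.61 ± 0.17 (limma adjusted p = 0.034, 0.025 and 0.048). These calls were lost in 10, 11 and 12 of the 18 alternatives run, among them 4, 5 and 5 of the 6 fits that left out 1 array. The other 13 ran between -0.56 and 0.50. Wars2, the tryptophan enzyme, was the lowest, at -0.56 ± 0.17 (limma adjusted p = 0.052), with levels of -2.17, -1.89 and -2.07 with IFN-beta, against -1.48, -1.36 and -1.62 in controls. Its groups did not overlap, but it did not pass the test over genes. Of mitochondrial class I enzymes 2 of 9 rose, and of class II enzymes 1 of 7, counts too small to set apart from the 11.8% of all genes that rose.

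Enzymes for the same amino acid were set against each other in 17 pairs, each cytosolic gene with its mitochondrial counterpart; Eprs and Fars2 each stand in 2 pairs. The log2 fold change was higher for the cytosolic gene in 15 of 17 pairs, with a median difference of 0.50. The difference was 1.32 for Aars and Aars2, 1.27 for Wars and Wars2, 1.04 for Lars and Lars2 and 0.92 for Rars and Rars2. Each gene stands by its brightest probe, and the count and sizes depend on that choice. A second Lars2 probe was at 1.31, above the 0.75 of Lars, and a second Wars2 probe at 0.58, near the 0.71 of Wars. In the other direction, a second Sars2 probe was at -0.11, further below the 1.07 of Sars. Pairs of further probes were not compared. The cytosolic gene lay below its counterpart for Mars and Mars2 (-0.038) and for Nars and Nars2 (-0.065). In 10 pairs, all with the cytosolic gene above, the difference between the enzymes on each IFN-beta array exceeded that on each control array. For single genes, groups did not overlap upward in 23.4%, but the share for differences between other pairs of genes was not computed. With 3 arrays against 3, the exact permutation test (2-sided) cannot go below p = 0.1, which 10 pairs reached, and the smallest value adjusted over the 17 pairs was 0.17.

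**Figure D2:**
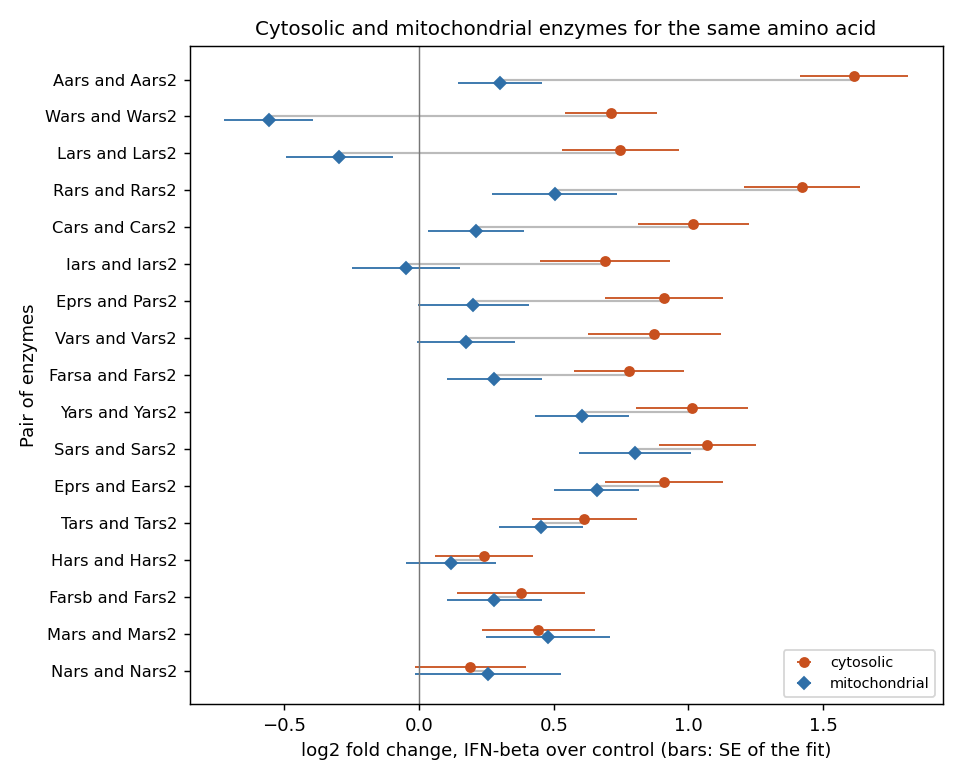
Log2 fold change, IFN-beta over control, of the cytosolic (circles) and mitochondrial (diamonds) enzyme for each of 17 pairs, with bars for the SE of the fit. Each gene is shown by its brightest probe. The pair of Aars and Aars2, at the top, is 1.32 apart, and the 2 lowest pairs have the mitochondrial enzyme slightly above.

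Most genes had further probes beside the brightest one. Of 40 tested cytosolic probes 25 rose and 0 fell, and of 38 tested mitochondrial probes 8 rose and 2 fell, where 13.7% of all 29794 probes rose and 7.83% fell. All 5 probes of Eprs rose, with log2 fold changes between 0.78 and 1.21. Both further Rars probes cross an exon junction, since their 60 bases span 3230 and 1177 bases of the genome. They are shown because they read the spliced mRNA away from the probe that stands for Rars, with the Wars and Lars2 probes discussed next (60 bases, 5′ to 3′, as on the array, positions on mm9).
Rars probe A_55_P2609064: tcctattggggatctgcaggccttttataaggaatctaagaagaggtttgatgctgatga
Rars probe A_52_P288614: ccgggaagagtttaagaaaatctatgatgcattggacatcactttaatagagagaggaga
Wars probe A_55_P2082902: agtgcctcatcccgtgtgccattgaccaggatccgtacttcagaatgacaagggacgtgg
Lars2 probe A_66_P122623: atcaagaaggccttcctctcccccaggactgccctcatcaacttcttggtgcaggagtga

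The first of these, spanning chr11:35634699-35637928 on the minus strand, had levels of 0.76, 1.03 and 1.06 with IFN-beta, against -0.81, -0.83 and -0.40 in controls. The second, spanning chr11:35633429-35634605, had levels of 0.42, 0.43 and 0.43 with IFN-beta, against -1.11, -1.11 and -0.65 in controls. With log2 fold changes of 1.63 and 1.38, both lay close to the 1.42 of the brightest Rars probe, and in each the groups stayed apart. The second Wars probe (chr12:110104366-110104425, minus strand) had levels of -0.69, -0.39 and -0.22 with IFN-beta, against -1.72, -1.57 and -1.47 in controls. Its log2 fold change of 1.16 ± 0.18 (limma adjusted p over probes = 0.005) exceeded the 0.71 of the brighter Wars probe.

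Probes of 1 gene did not always move together. An opposite sign to the brightest probe was found for 8 of 22 further tested mitochondrial probes, in Ears2, Hars2, Iars2, Lars2, Sars2 and Wars2, and for 2 of 20 further cytosolic probes, in Farsa and Qars. The Lars2 probe shown above (chr9:123370737-123370796, plus strand) had levels of 1.77, 2.41 and 2.32 with IFN-beta, against 0.64, 0.60 and 1.32 in controls. It rose by 1.31 ± 0.27 on the log2 scale (limma adjusted p over probes = 0.013). The brightest Lars2 probe, 720 bases further along, had levels of 1.39, 1.54 and 1.40 with IFN-beta, against 1.57, 1.54 and 2.10 in controls, a log2 fold change of -0.30. The direction of Lars2 therefore depends on the probe, and so does that of Wars2, whose second probe was at 0.58. Tars2, the threonine enzyme, did not pass the test by its brightest probe (0.45), while 2 of its 3 further probes rose, by 0.99 and 0.96. In Iars2, the isoleucine enzyme, 1 further probe rose by 0.57 and another, not well above background on any IFN-beta array, was at least 1.05-fold lower with IFN-beta.

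**Figure D3:**
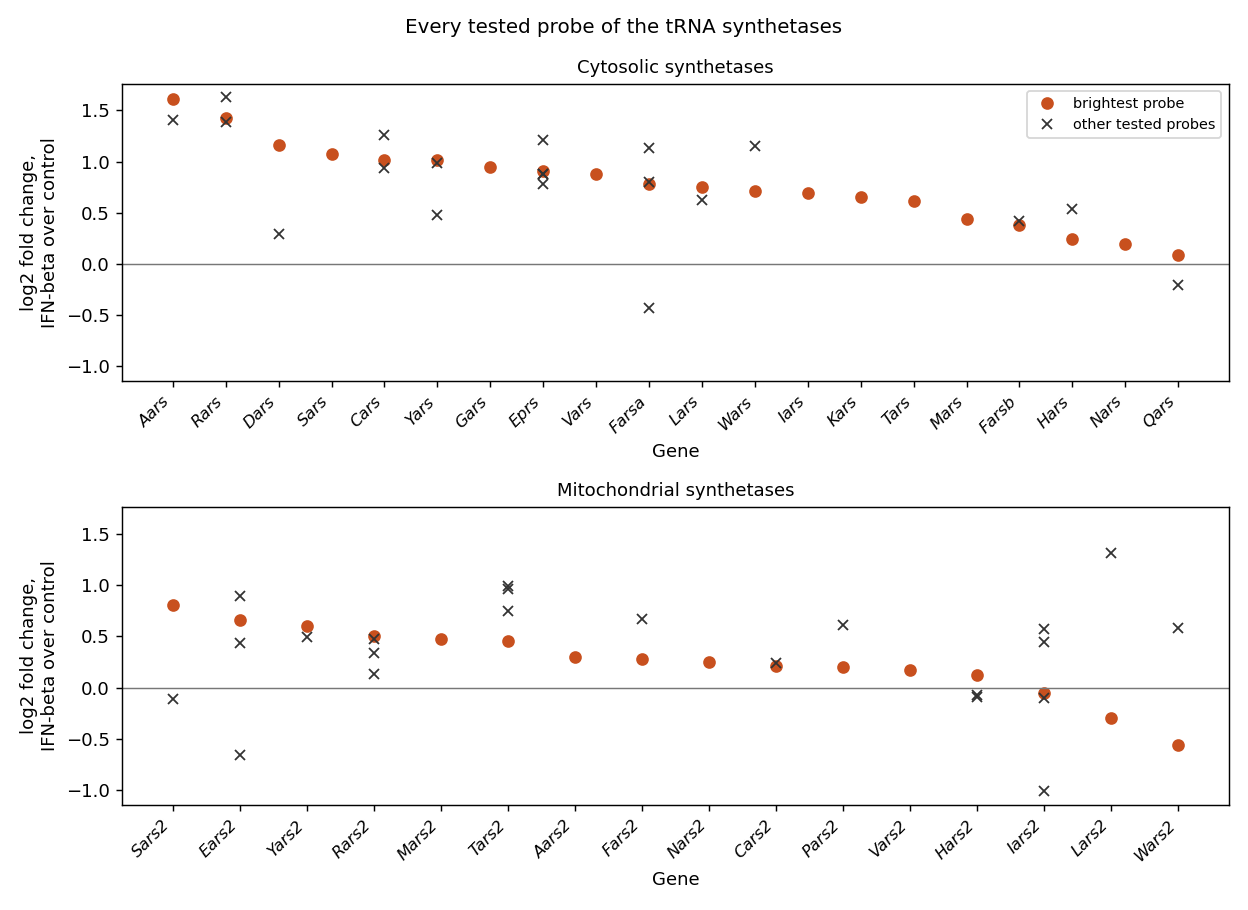
Log2 fold change of each tested probe, IFN-beta over control, for the cytosolic (top) and mitochondrial (bottom) synthetases; filled circles mark the brightest probe of a gene and crosses its other probes. The 2 Lars2 points lie at -0.30 and 1.31, and all Rars and Eprs points lie above 0.7.

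Control 3 lay above both control 1 and control 2 for all 20 cytosolic genes and 13 of 16 mitochondrial genes (73.9% of all genes). The median gap between control 3 and the mean of controls 1 and 2 was 0.50 for cytosolic and 0.34 for mitochondrial genes on the log2 scale, against 0.35 over all genes. For 15 cytosolic genes control 3 lay between controls 1 and 2 and the IFN-beta arrays. Without control 3, 18 of 20 cytosolic genes rose (33.1% of all genes did), at a median of 0.95 on the log2 scale, as did 7 of 16 mitochondrial genes. Against control 3 alone, taken to vary like the IFN-beta arrays, 2 of 20 cytosolic genes rose (5.22% of all genes did), with a median of 0.45, and 0 of 16 mitochondrial genes, with a median of 0.059 (7 and 1 higher at an unadjusted p under 0.05). The 2 that rose both without control 3 and against it alone were Aars and Rars, with log2 fold changes against control 3 of 1.54 and 1.04 (limma adjusted p = 0.028 and 0.043). Both comparisons share the 3 IFN-beta arrays.

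The count of cytosolic genes that rose also depended on other arrays. It came to 4 when control 1, control 2, IFN-beta 2 or IFN-beta 3 was left out (5.62%, 6.02%, 5.83% and 6.33% of all genes), and to 8 when IFN-beta 1 was left out (7.84%). Controls and the first IFN-beta array shared 1 slide and the other IFN-beta arrays a second, so slide was partly confounded with treatment. The second slide held no control, so with slide as a block the fold changes rest on IFN-beta 1 against the 3 controls. They are the same as within the first slide alone, with a cytosolic median of 0.67 in both, and are not a separate check. With the block 2 cytosolic genes rose, Aars and Dars (3.41% of all genes), while Rars did not pass (log2 fold change 1.45, limma adjusted p = 0.061). For Dars, IFN-beta 1 was the highest array. Scaling to spike-in transcripts left 3 (5.12%), with a median of 0.45, and testing dim probes too left 4 (3.01%). Of 18 alternatives run, Aars lost its call in 1, Dars and Rars in 2 each and Sars in 4. The other 8 cytosolic genes that rose, Cars, Yars, Gars, Eprs, Vars, Farsa, Lars and Wars, lost theirs in 9 to 11, 4 or 5 of them fits with 1 array left out.

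**Figure D4:**
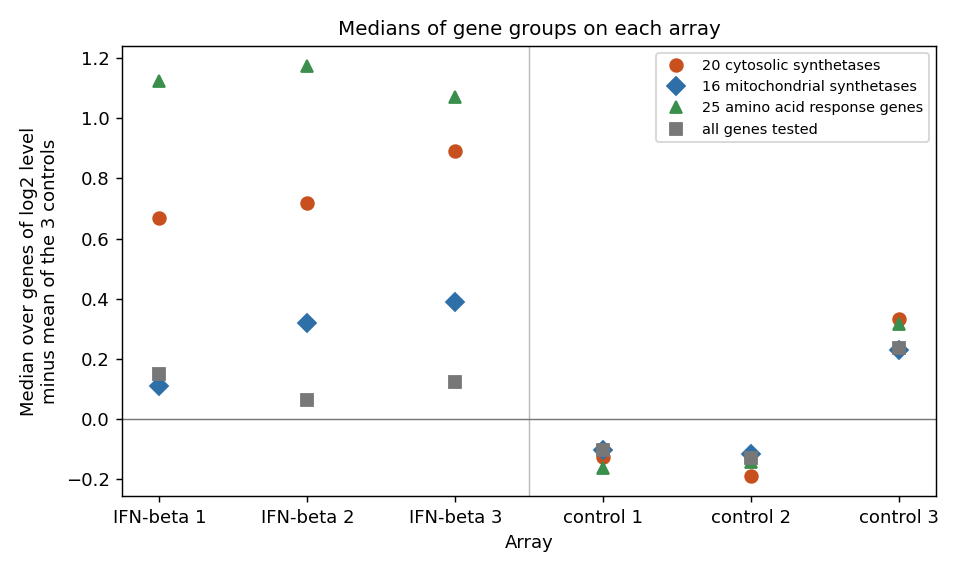
Median over the genes of a group of the log2 level minus the mean of the 3 controls, on each array. The cytosolic synthetases lie at 0.67, 0.72 and 0.89 with IFN-beta, against -0.13, -0.19 and 0.33 in controls, and all genes tested lie between 0.06 and 0.15 with IFN-beta.

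The group medians by array gave the same order. The mitochondrial median was 0.11, 0.32 and 0.39 above the control mean with IFN-beta, against -0.10, -0.12 and 0.23 in controls, so its first IFN-beta array lay below control 3. The cytosolic median did not overlap between groups.

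Of 25 other genes of the amino acid response, 17 rose and 0 fell (11.8% and 8.04% of all genes), with a median log2 fold change of 1.13. At an unadjusted p under 0.05, 18 were higher and 1 lower, and 1 fell after quantile normalization (8.73% of all genes did). In all, 21 of 25 lay above 0. The lowest was Vldlr, a lipoprotein receptor, at -1.74 with overlapping groups, and in Slc38a2, an amino acid transporter (-0.45), every IFN-beta array lay below every control. The 4 of lowest p were Ddit3 (3.37), a stress-induced transcription factor, Trib3 (3.54), a pseudokinase that restrains ATF4, Phgdh (1.98), the first enzyme of serine synthesis, and Chac1 (2.14), which degrades glutathione. Ddit3 had an SE of 0.17 and Trib3 of 0.24, and all 4 also passed the test against control 3 alone, with log2 fold changes between 1.62 (Phgdh) and 3.26 (Ddit3). Of the 4 kinases that phosphorylate the initiation factor eIF2, only Eif2ak2, the double-stranded RNA sensor PKR and a known interferon-stimulated gene, rose (1.65 ± 0.23, limma adjusted p = 0.0032), while 2 of the 4 were higher and 1 lower at an unadjusted p under 0.05. Eif2ak1, Eif2ak3 and Eif2ak4 were at 0.49, -0.50 and 0.16.

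Genes that act beside or after the synthetases were counted against the 11.8% of all genes that rose, which in lists of 4 to 9 genes is about 1 gene or fewer. Of 5 cytosolic elongation factor genes 0 passed it (median log2 fold change 0.011), and of 4 genes that clear mischarged tRNA 0 passed it (median 0.24), with 1 higher in each list at an unadjusted p under 0.05. In mitochondria, 0 of 4 genes of the amidotransferase and formylation steps (median 0.46) and 0 of 9 translation factors (median 0.32) passed, with 2 higher in each list at an unadjusted p under 0.05. Of 78 mitochondrial ribosomal protein genes 9 rose (11.5%, close to the 11.8% of all genes) and 2 fell (median 0.30, but -0.0049 with spike-in scaling), led by Mrps18b (1.26), Mrps22 (1.27), Mrpl1 (1.12) and Mrps10 (0.93).

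Markers of other myeloid cells differed between the groups too, where 11.8% of all genes rose and 8.04% fell. Of 11 neutrophil markers 7 rose, with summed levels of 1054, 1032 and 855 with IFN-beta, against 513, 491 and 661 in controls. All 6 tested of 7 basophil and mast cell markers rose, with sums of 82.0, 85.1 and 58.1 with IFN-beta, against 6.00, 5.99 and 9.74 in controls. Of 5 plasmacytoid dendritic cell markers (Siglech, Bst2, Ccr9, Tcf4 and Irf8) 2 rose and 0 fell, with 2 higher and 2 lower at an unadjusted p under 0.05. Every IFN-beta array lay above every control for 2 of the 5 and below every control for 2 (23.4% and 16.8% of all genes), so the list did not move as 1. Its sums were 117, 147 and 150 with IFN-beta, against 87.5, 78.8 and 78.7 in controls. Of the 9 monocyte and macrophage markers themselves 2 rose and 3 fell, with 2 higher and 4 lower at an unadjusted p under 0.05. Their median log2 fold change was 0.07. Their sums, in which the brightest genes weigh most, were 1002, 1039 and 998 with IFN-beta, against 550, 530 and 751 in controls. All 11 neutrophil, 5 plasmacytoid dendritic cell and 9 monocyte and macrophage markers were well above background on every array. Of the 7 basophil and mast cell markers, 6 were on IFN-beta 3 and on control 3, and 7 on each other array. The part of these markers in the synthetase result was not tested.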

How the data were processed

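The 6 arrays were read from the deposited scanner files. Per the file headers, the authors extracted spots with Agilent Feature Extraction 12.0.3.1, giving a processed intensity per spot, not normalized between arrays. The authors' deposited processed values are on a log2 scale; their normalization is not given in the sources used here beyond limma, named in the submitters' processing notes, and they served as an alternative. Control and outlier spots were left out, spots of a probe were averaged, and log2 processed intensity was taken minus the array's 75th percentile, which was 244, 236 and 242 with IFN-beta, against 550, 528 and 305 in controls. Depth has no meaning for arrays; their number limits the precision.

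Probes entered the test where all 3 arrays of a group lay well above background, and a gene was represented by its brightest probe. The comparison, IFN-beta over control, was fitted by lmFit and eBayes of limma 3.58.1 (in R 4.3.3, reading files with data.table, version 1.17.8) without covariates, with Benjamini-Hochberg adjustment over 19500 genes (29794 probes for probe results) and a threshold of 0.05. Pairs were compared by exact permutation in SciPy 1.17.1. The fit was tested on simulated data. Positions of probes are those of the files, on mm9, and promoters are RefSeq's, on GRCm38.p6, with no conversion.

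Genes, lists and alternatives were chosen with earlier results of these data known. Every called gene was named with its values on each array, other synthetases by range with the highest and lowest, and up to 4 called genes of lowest p from each companion list. Iars, Kars, Tars, Farsb and the probes of Rars, Wars, Lars2, Tars2 and Iars2 were named after their values were seen. Alternatives covered scaling, background correction, filters, the choice of probe, slide, and leaving out each array. Some promoter results are not reported here.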

Additional observations from a re-analysis of the deposited data

How the results depend on the processing

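The cytosolic median log2 fold change stayed above 0 under every alternative run, and 0 cytosolic genes fell under any of them. The difference of medians, cytosolic minus mitochondrial (0.50), was 0.34 after quantile normalization, 0.38 after normexp background correction, 0.34 in the deposited table, 0.37 with the mean of all probes and 0.40 against control 3 alone. Scaling to spike-in transcripts moved the median of all genes to -0.21; 3 cytosolic genes then rose (median 0.45), 0 mitochondrial genes rose and 1 fell, and the mitochondrial median turned to -0.041. Testing dim probes too left 4 cytosolic and 0 mitochondrial genes that rose (3.01% of all genes). Asking for all 6 arrays above background gave 1 mitochondrial gene that fell (8.17% of all genes). The mean of all probes left 1 mitochondrial gene that rose (12.5% of all genes). The slide block, whose fold changes are those of the first slide alone, left 2 cytosolic and 0 mitochondrial genes that rose (3.41% of all genes). Against control 3 alone the cytosolic and mitochondrial medians were 0.45 and 0.059. Leaving out 1 array at a time gave 4 to 18 cytosolic genes that rose, 0 to 7 mitochondrial genes that rose and 0 to 1 that fell. Over all genes, 5.62% to 33.1% rose and 3.67% to 15.1% fell in these fits. With a replicate block 12 cytosolic and 2 mitochondrial genes rose (9.79% of all genes), and of the 15 calls 2 were lost and 1 was gained. Arrays sharing a number deviated together only weakly (r = 0.07, 0.02 and 0.07 over genes), so the numbers were not taken to pair the samples.

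Signs turned for some genes that were not called over genes, with log2 fold changes between -0.56 (Wars2, which passed the test over probes) and 0.38 (Farsb). Qars was at -0.075 after quantile normalization, -0.22 with spike-ins, -0.053 with normexp, -0.040 in the deposited table, -0.056 with the mean of probes, -0.079 with the slide block and within the slide, -0.25 against control 3, and between -0.00077 and 0.26 with 1 array left out. With spike-ins Hars was at -0.067, Nars at -0.12, Aars2 at -0.0095, Cars2 at -0.098, Fars2 at -0.029, Hars2 at -0.19, Nars2 at -0.054, Pars2 at -0.11 and Vars2 at -0.13. With the mean of probes Hars2 was at -0.014, Lars2 at 0.51 and Wars2 at 0.012, and Nars was at -0.12 with the slide block and within the slide. Against control 3 Farsb was at -0.11, Hars at -0.022, Hars2 at -0.075, Nars2 at -0.35 and Pars2 at -0.15. Iars2 ran between -0.17 and 0.093 with 1 array left out, and was above 0 without control 3 or without IFN-beta 1 (0.039). The cause of these changes was not tested. Limits on precision are the 3 arrays a group, the partial overlap of slide with treatment and the signal over background, with 49.0% to 52.5% of probes well above background with IFN-beta, against 52.5% to 63.9% in controls.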
